A study of Mus musculus with 10 samples.

Results

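The genes of dopamine synthesis, transport and reception were followed through every library of the series: Th, Ddc, Slc18a2 and Slc6a3, which make and move dopamine, the receptor genes Drd1, Drd5 and Drd2, and Ppp1r1b and Adora2a, which act in the cells that receive it. The members were a fixed list of 9 symbols, matched by name to the Ensembl gene IDs of a table of 47729 genes, and all 9 were found. RNA was sequenced from 3 dissected brain regions of 56-day-old CF1 mice, which are outbred, in prefrontal cortex and hippocampus of both sexes and in hypothalamus of males. The perinatal diet was low in protein (LP) or normal in protein (NP), was given to the parents at mating and stayed with the dams through gestation and nursing. From weaning at day 21 the offspring of both groups were housed on NP. Each combination of region, sex and diet had 1 library, so the 10 libraries form 5 pairs of LP and NP, and no group has a replicate of its own. Each diet p-value below therefore rests on the spread between pairs. The exception is Slc6a3, which was well counted in the hypothalamic pair only. Region p-values rest on the spread left among libraries after additive terms for region, sex and diet. Sex p-values rest on the spread of the female to male difference over regions and diets. The labels do not say whether a library is 1 animal or a pool.

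Dopamine is made from tyrosine in 2 enzymatic steps, by tyrosine hydroxylase (Th), the rate-limiting enzyme, and aromatic L-amino acid decarboxylase (Ddc), which serotonin neurons use as well. The vesicular monoamine transporter (Slc18a2) loads dopamine, serotonin, noradrenaline and histamine into vesicles, and the dopamine transporter (Slc6a3) returns dopamine from outside the cell. The cell bodies of dopamine neurons lie mainly in the midbrain and hypothalamus and send axons to cortex and other regions, so the mRNA of these genes is found mostly where the cell bodies are. Drd1 and Drd5 encode receptors that raise cyclic AMP, and Drd2 encodes one that lowers it and also serves as an autoreceptor. Ppp1r1b encodes a phosphatase inhibitor that dopamine signalling regulates, and Adora2a an adenosine receptor best known from striatal cells that also carry Drd2.

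Promoters are shown for the 3 members of the synthesis and storage route that were high together in hypothalamus and whose RefSeq windows (GRCm38.p6, 250 bases before to 50 after a start) held a match. Of the 9 members, 7 matched the RefSeq promoter table, with 9 windows. The cyclic AMP response element, TGACGTCA, which reads the same on both strands, was in 2 of the 9 windows, those of Th and Slc18a2, and in 588 of all 32851 windows (1.79%). The element bound by single Nr4a nuclear receptors, AAAGGTCA, was searched on both strands and was in 1 of the 9 windows, one of Ddc, where it reads TGACCTTT on the gene's strand, and in 495 of all windows (1.51%). Its first base lies 73 bases before the start in Ddc, and that of the cyclic AMP response element lies 45 before the start in Th and 4 before it in Slc18a2, where the match runs across the start. The 110 bases from 100 before to 10 after each start follow, 5′ to 3′ on the gene's strand, with the match in capitals. A match describes these letters and is no evidence of binding.
Th, chr7:142899986-142900095, minus strand: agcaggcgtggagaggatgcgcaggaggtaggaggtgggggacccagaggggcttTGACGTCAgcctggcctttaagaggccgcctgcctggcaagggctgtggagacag
Slc18a2, chr19:59260778-59260887, plus strand: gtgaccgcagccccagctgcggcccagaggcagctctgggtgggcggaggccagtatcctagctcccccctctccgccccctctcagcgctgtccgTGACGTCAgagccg
Ddc, chr11:11898135-11898244, minus strand: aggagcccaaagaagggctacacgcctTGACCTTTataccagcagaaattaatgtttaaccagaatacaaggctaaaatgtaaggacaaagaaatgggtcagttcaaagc

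In the GENCODE M21 annotation (GRCm38) all 9 are protein-coding. Th (ENSMUSG00000000214) lies at chr7:142892752-142931128, Ddc (ENSMUSG00000020182) at chr11:11814101-11898144 and Slc18a2 (ENSMUSG00000025094) at chr19:59260896-59296012. On chromosome 13 lie Slc6a3 (ENSMUSG00000021609) at chr13:73536747-73578672, and Drd1 (ENSMUSG00000021478) at chr13:54051183-54055705. Drd5 (ENSMUSG00000039358) lies at chr5:38319367-38322518 and Drd2 (ENSMUSG00000032259) at chr9:49340627-49408177. Ppp1r1b (ENSMUSG00000061718) lies at chr11:98348404-98357796 and Adora2a (ENSMUSG00000020178) at chr10:75316877-75334784. Antisense genes share exon sequence with Drd5 (Gm26560, at most 10 counts in a library), Ppp1r1b (1700003D09Rik, at most 5) and Slc18a2 (Gm29261, at most 1). The strand setting of the counting is not given in the sources used here, so reads of these partners cannot be told apart from those of the members.

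Total counts were 7871010 to 16265481 per library. The female NP hippocampus library has no counts for genes that come after Park7 on chromosome 4, or on M, X, Y and chromosomes 5 to 9, and was treated as not measured there. Th, Drd2 and Drd5 therefore have 9 libraries and the other 6 members 10. Levels are CPM, read counts scaled to a fixed library total, over the 28131 genes measured in all 10 libraries, so they run higher than CPM over a whole library. Sums of the marker genes measured in all 10 libraries followed the labelled regions. The 9 hypothalamic genes summed to 883 and 1384 CPM in the hypothalamus libraries and to 3.98 to 6.53 CPM elsewhere. Of 8 hippocampal genes, 6 summed to 889 to 972 CPM in hippocampus against 68.8 to 223 CPM in the other regions. Of 8 cortical excitatory neuron genes, 6 summed to 893 to 945 CPM in prefrontal cortex against 78.9 to 304 CPM. Neurod6, a cortical gene left out, went the other way (165 to 190 CPM in prefrontal cortex, 528.7 and 435.5 CPM in male NP and LP hippocampus). All 8 cortical genes summed to 1361 to 1459 CPM in prefrontal cortex and 787 to 871 CPM in the hippocampus libraries that measured them. All 8 hippocampal genes summed to 1233 to 1346 CPM there against 296 to 430 CPM. Pituitary hormone genes stood at 829 CPM in the male NP hippocampus library, at 156 and 35.2 CPM in the NP and LP hypothalamus libraries and at 0.866 to 15.4 CPM in the other 7.

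The genes that make, store and take back dopamine were 12.6- to 115-fold higher in hypothalamus than in the other regions. Th had 735 counts (59.5 CPM) in the NP and 834 counts (74.7 CPM) in the LP hypothalamus, 15 to 22 counts in the 4 prefrontal cortex libraries, and 2, 11 and 2 counts in the 3 hippocampus libraries that measured it. The hypothalamic values did not overlap those of the other regions, and in hippocampus only the male LP library had more than 2 counts of Th. On the log2 scale Th was higher in hypothalamus by 5.00 ± 0.21 (SE) than in prefrontal cortex and by 6.85 ± 0.26 than in hippocampus (adjusted p = 5.76e-11 and 1.83e-11, edgeR's quasi-likelihood test, Benjamini-Hochberg adjustment over all genes). Th was lower in hippocampus than in prefrontal cortex, by a log2 difference of -1.85 ± 0.46 (adjusted p = 0.00402); without the female LP hippocampus library this value was -1.20 with an adjusted p of 0.0826. In bulk tissue, fewer cells of a type and less RNA per cell cannot be told apart.

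Ddc was counted in every library. It had 1050 (NP) and 1306 (LP) counts in hypothalamus, or 85.0 and 117 CPM, against 4.72 to 5.92 CPM in prefrontal cortex and 5.87 to 8.63 CPM in hippocampus. Its hypothalamic excess was 4.30 ± 0.16 over prefrontal cortex and 3.92 ± 0.15 over hippocampus on the log2 scale (adjusted p = 1.63e-11 and 3.43e-11). The lowest hippocampus library lay within the range of the prefrontal cortex libraries, and the difference between those regions, 0.38 ± 0.20, did not pass the threshold (adjusted p = 0.126). It passed when either hypothalamus library was left out of the fit (adjusted p = 0.0299 and 0.0314 at log2 differences of 0.38).

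Slc18a2 followed the same order with separate ranges in all 3 regions: 83.0 (NP) and 128 CPM (LP) in hypothalamus, 7.62 to 9.58 CPM in hippocampus and 2.53 to 6.21 CPM in prefrontal cortex. The hypothalamus exceeded prefrontal cortex by 4.58 ± 0.22 and hippocampus by 3.66 ± 0.20 on the log2 scale (adjusted p = 2.47e-10 and 1.11e-09). Unlike Th it was higher in hippocampus than in prefrontal cortex, by 0.93 ± 0.27 (adjusted p = 0.01). Neurons that store other monoamines carry Slc18a2 too, and Hdc, the histamine-synthesizing enzyme, had 1534 and 1810 counts in the NP and LP hypothalamus against 5 to 41 elsewhere. Markers of noradrenaline and serotonin neurons were near the floor in those 2 libraries, with Dbh at 4 and 5 counts, Slc6a2 at 3 and 0, Slc6a4 at 2 and 1 and Tph2 at 6 and 5.

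Slc6a3 had very few counts outside the hypothalamus, and passed the filter on low counts through that region alone. It had 97 counts in the NP and 779 in the LP hypothalamus and 0 to 4 counts in each of the other 8 libraries; the count of 0 came from the female LP prefrontal cortex, where it allows up to 3 counts. The log2 difference of hypothalamus was 6.70 ± 0.52 against prefrontal cortex and 6.45 ± 0.52 against hippocampus, both set against a handful of reads. Since the filter kept the gene only for its hypothalamic counts, the outcome of these 2 tests was settled beforehand and their p-values are not given. Hippocampus and prefrontal cortex could not be separated at this depth (0.25 ± 1.25, adjusted p = 0.881).

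**Figure D1:**
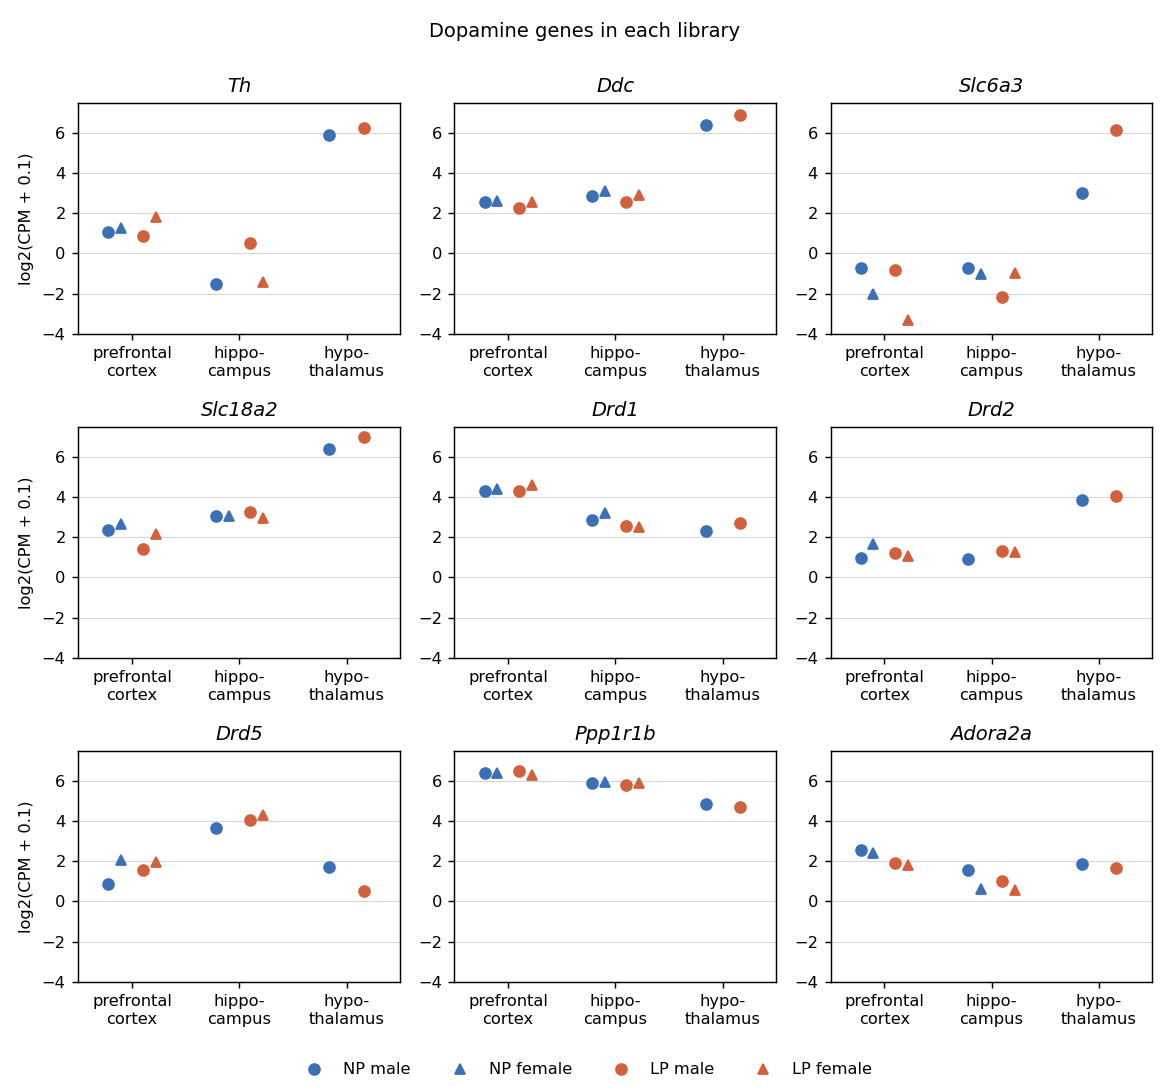
Level of each of the 9 genes in each library, as log2 of CPM plus 0.1 (vertical axis), by region (horizontal axis). Circles are males, triangles females, blue NP and orange LP; Th, Drd2 and Drd5 lack the female NP hippocampus library, and the hypothalamus libraries stand above all others for Th, Ddc, Slc6a3, Slc18a2 and Drd2.

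Each of the 3 receptor genes was highest in a different region. Drd1 had 146 to 172 counts in prefrontal cortex (19.5 to 24.5 CPM), 41 to 71 counts in hippocampus (5.58 to 9.28 CPM) and 60 and 71 counts in hypothalamus (4.86 and 6.36 CPM, NP and LP). The prefrontal cortex libraries lay above all 6 others. Drd1 was lower in hippocampus by a log2 difference of -1.61 ± 0.14 and in hypothalamus by -1.81 ± 0.19 than in prefrontal cortex (adjusted p = 4.6e-07 and 1.12e-06). Hypothalamus and hippocampus overlapped in Drd1 (-0.21 ± 0.22, adjusted p = 0.434).

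Drd5, the other receptor that raises cyclic AMP, was the hippocampal one. It had 100, 137 and 142 counts in the male NP, male LP and female LP hippocampus (12.6, 16.4 and 19.3 CPM), 14 to 28 counts in prefrontal cortex and 39 (NP) and 15 (LP) in hypothalamus. All 3 hippocampus libraries lay above the other 6. The log2 difference was 2.46 ± 0.23 over prefrontal cortex, and hypothalamus lay below hippocampus by -2.63 ± 0.28 (adjusted p = 5.14e-07 and 1.35e-06). Hypothalamus and prefrontal cortex were not separated (-0.17 ± 0.37, adjusted p = 0.705), but without the NP hypothalamus library the value was -1.09 with an adjusted p of 0.0376.

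Drd2 was the hypothalamic receptor. Its counts were 180 (NP) and 183 (LP) in hypothalamus, 13 to 21 in prefrontal cortex and 14, 20 and 17 in hippocampus. Both hypothalamus libraries stood apart from the other 7, by a log2 difference of 2.87 ± 0.21 from prefrontal cortex and 2.93 ± 0.21 from hippocampus (adjusted p = 2.53e-08 and 2.37e-08). Prefrontal cortex and hippocampus overlapped in Drd2 (-0.05 ± 0.28, adjusted p = 0.892).

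Counted per kilobase of exon, the make-up of the 3 receptors turned over between regions. Drd1 made up 70.1% to 80.7% of the sum of Drd1, Drd5 and Drd2 in the 4 prefrontal cortex libraries. In the 3 hippocampus libraries Drd5 made up 60.2% to 71.5% and Drd1 17.9% to 29.3%. Drd2 made up 71.0% (NP) and 74.7% (LP) in hypothalamus, against 9.12% to 14.4% in the other 7 libraries. In each region the leading receptor's share lay above the shares of that same receptor in every library of the other regions.

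**Figure D2:**
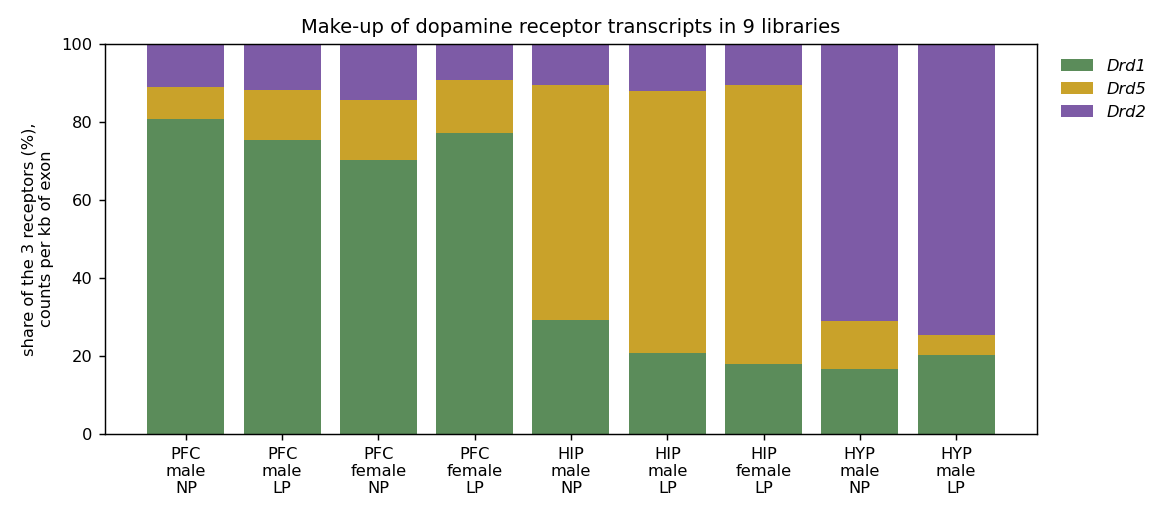
Share of Drd1 (green), Drd5 (yellow) and Drd2 (purple) in the sum of the 3 receptors, as counts per kilobase of merged exon (vertical axis, percent), in the 9 libraries that measured all 3. The leading receptor is Drd1 in prefrontal cortex (70.1% to 80.7%), Drd5 in hippocampus (60.2% to 71.5%) and Drd2 in hypothalamus (71.0% and 74.7%).

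Ppp1r1b, which acts downstream of the receptors, was the most abundant member in prefrontal cortex and hippocampus. It had 496 to 782 counts in prefrontal cortex (77.3 to 90.0 CPM), 443 to 478 in hippocampus (56.4 to 61.7 CPM), and 356 (NP) and 286 (LP) in hypothalamus (28.8 and 25.6 CPM). The 3 regions did not overlap. It was lower in hippocampus by a log2 difference of -0.49 ± 0.06 and in hypothalamus by -1.63 ± 0.09 than in prefrontal cortex (adjusted p = 1.74e-05 and 1.23e-09), and lower in hypothalamus than in hippocampus by -1.14 ± 0.09 (adjusted p = 7.8e-08).

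Adora2a was low in all regions. It had 22 to 47 counts in prefrontal cortex (3.43 to 5.84 CPM), 10 to 23 in hippocampus (1.36 to 2.90 CPM), and 44 (NP) and 34 (LP) in hypothalamus (3.56 and 3.04 CPM). Hippocampus lay below prefrontal cortex by a log2 difference of -1.23 ± 0.22 (adjusted p = 2.74e-04). The difference of hypothalamus from prefrontal cortex, -0.61 ± 0.23 (adjusted p = 0.0309), came with overlapping libraries; it lost its call without the NP hypothalamus library (-0.40, adjusted p = 0.297), without the male NP prefrontal cortex library (adjusted p = 0.0963) and with DESeq2 (adjusted p = 0.203). The value of hypothalamus over hippocampus, 0.63 ± 0.27, did not pass (adjusted p = 0.0565).

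**Figure D3:**
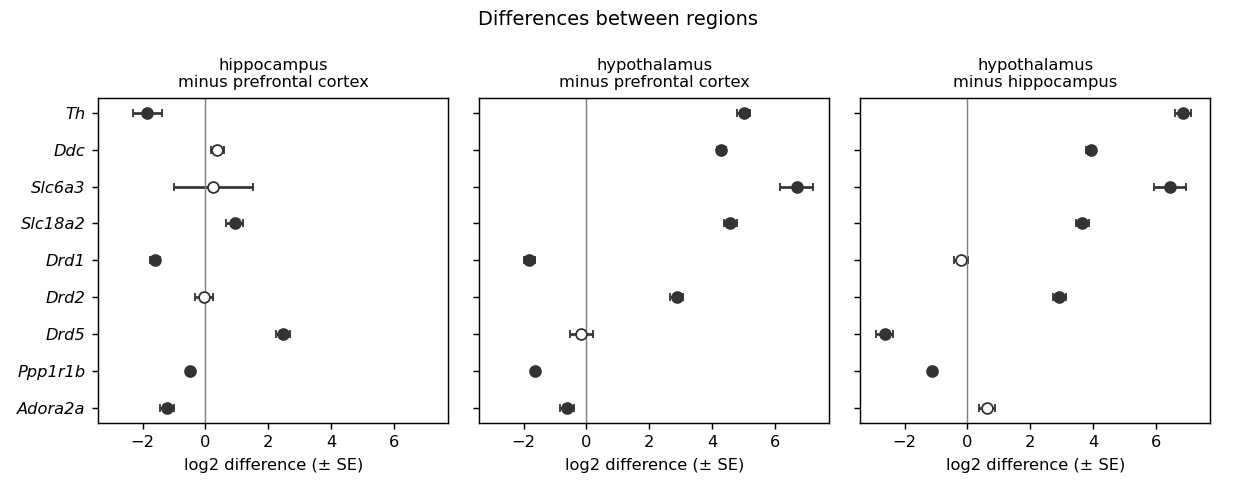
Log2 difference between regions (horizontal axis) with its standard error (bars) for the 9 genes, one panel per pair of regions. Filled points passed an adjusted p of 0.05 and open points did not; Th reaches 6.85 and Slc6a3 6.45 in hypothalamus over hippocampus, and Drd5 lies at 2.46 in hippocampus over prefrontal cortex.

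Most genes differed between regions in these libraries, and the members' calls are read against that. Between hippocampus and prefrontal cortex 53.4% of 17550 genes were called, 27.3% higher and 26.1% lower in hippocampus; of the 9 members 2 were higher (Slc18a2 and Drd5) and 4 lower (Th, Drd1, Ppp1r1b and Adora2a). Between hypothalamus and prefrontal cortex 63.6% were called, 33.2% higher and 30.5% lower in hypothalamus; 5 members were higher (Th, Ddc, Slc6a3, Slc18a2 and Drd2) and 3 lower (Drd1, Ppp1r1b and Adora2a). Between hypothalamus and hippocampus 60.3% were called, 30.4% higher and 29.9% lower in hypothalamus. The same 5 members were higher and 2 lower (Drd5 and Ppp1r1b). Slc6a3 was tested only through its hypothalamic counts, so its calls as higher in hypothalamus were settled by the filter. The median log2 difference of the members was 2.87 for hypothalamus over prefrontal cortex and 2.93 over hippocampus, against 0.02 and 0.01 over all genes tested, and it was -0.05 for hippocampus over prefrontal cortex against 0.00.

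Levels of different genes can be set side by side only per length, here CPM per kilobase of merged exons. In prefrontal cortex Ppp1r1b led (median 28.4), Drd1 followed (5.63), and Adora2a, Ddc, Drd5, Th, Slc18a2 and Drd2 lay between 0.485 and 1.91 with each neighbour in the order overlapping the next; Slc6a3 was lowest, at 0.144 or less. In hippocampus Ppp1r1b (20.6) was followed by Drd5 (5.21) and then by Drd1 (1.78), Ddc (1.63) and Slc18a2 (1.58), which overlapped; Drd2 (0.908) and Adora2a (0.548) overlapped too, and Slc6a3 (0.116) and Th (0.115) were lowest. In hypothalamus Th (28.4), Ddc (22.6) and Slc18a2 (20.2) led with overlapping values, Slc6a3 spanned 2.27 (NP) to 20.2 (LP), and Ppp1r1b (9.30), Drd2 (6.08) and Drd1 (1.55) followed, each apart from the next; Adora2a (1.08) and Drd5 (0.714) overlapped at the bottom. Th thus ran from the last or near-last place in hippocampus to the first in hypothalamus. The ratio of Th to Ddc per kilobase was 1.32 (NP, 95% counting interval 1.20 to 1.45) and 1.20 (LP, 1.10 to 1.31) in hypothalamus, 0.642 to 1.12 in prefrontal cortex and 0.0674 to 0.424 in hippocampus.

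Other genes of the pathway also differed between regions. Of 11 genes of cofactor supply and dopamine breakdown, 10 were tested. Between hypothalamus and prefrontal cortex 8 of them were higher in hypothalamus and 1 lower (median log2 difference over the 10 tested 0.67). Of all genes 33.2% were higher and 30.5% lower. Pcbd1 and Gch1, of tetrahydrobiopterin regeneration and synthesis, the cofactor of Th, were higher by 2.85 ± 0.11 and 2.14 ± 0.21, the aldehyde dehydrogenase gene Aldh1a1 by 2.34 ± 0.20 and the monoamine oxidase gene Maoa by 0.96 ± 0.09. Between hippocampus and prefrontal cortex Qdpr (0.74 ± 0.08) and Aldh1a1 (0.56 ± 0.18) were higher in hippocampus, and the monoamine oxidase gene Maob (-0.55 ± 0.09) was lower.

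Of 22 other receptors and signalling partners, 20 were tested, since Drd3 and Drd4 were too low. Between hippocampus and prefrontal cortex 14 were lower and 6 higher (median -0.34), against 26.1% and 27.3% of all genes. The cyclic AMP-regulated phosphoproteins Arpp19 and Arpp21 were lower, with log2 differences of -2.05 ± 0.06 and -1.63 ± 0.05. Kcnj6, a potassium channel opened by receptors of the Drd2 type, was higher in hippocampus by 1.29 ± 0.08. Between hypothalamus and prefrontal cortex 13 were lower and 5 higher (median -0.44), against 30.5% and 33.2% of all genes. Rgs9, which shortens receptor signals, and the G protein gene Gnas were higher by 2.09 ± 0.11 and 1.37 ± 0.11.

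Drd1, Drd2, Ppp1r1b and Adora2a are best known from striatal projection neurons, so 13 genes of those cells were followed beside them. The 10 of them measured in all libraries summed to 504 to 556 CPM in prefrontal cortex, 467 to 513 CPM in hippocampus and 697 to 705 CPM in hypothalamus, and none was at 0 in a hypothalamus library. Between hippocampus and prefrontal cortex 7 of the 13 were lower and 4 higher, against 26.1% and 27.3% of all genes. Tac1 stood at -1.64 ± 0.16, Penk at -1.28 ± 0.14 and Rasd2 at -0.01 ± 0.06. Their part in the differences of Drd1, Ppp1r1b and Adora2a between these regions was not tested.

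The perinatal diet was compared over the 5 pairs with 1 diet term for all regions. Of the 9 members only Slc6a3 passed the threshold, higher in LP by 2.92 ± 0.33 on the log2 scale (adjusted p = 0.000169); over all 17547 genes tested 1.21% were called. The value is that of a single pair, so its p-value does not measure a spread between pairs. In hypothalamus Slc6a3 went from 97 counts (7.86 CPM) in NP to 779 (69.8 CPM) in LP, a log2 ratio of 3.11 or 8.65-fold with a prior count of 2 (95% counting interval of the log2 ratio 2.85 to 3.47). The other 4 pairs had 4 and 4, 1 and 0, 4 and 1, and 3 and 3 counts (NP and LP; male and female prefrontal cortex, then male and female hippocampus), so none of them differed by more than 3 counts. Without the hypothalamic pair it was too low to be tested, and with DESeq2 the common log2 difference was 0.08 (adjusted p = 1).

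Slc6a3 also differed relative to the other dopamine genes of the same libraries. Per kilobase its ratio to Th was 0.0903 (95% counting interval 0.0723 to 0.112) in the NP and 0.639 (0.579 to 0.705) in the LP hypothalamus, and its ratio to Slc18a2 0.143 (0.115 to 0.176) and 0.827 (0.756 to 0.902). The other genes of the route were also higher in the LP hypothalamus, by far less: Th by a log2 ratio of 0.33, Ddc by 0.46 and Slc18a2 by 0.62. Of 17323 genes with at least 20 counts in the 2 libraries together, 3 had an LP over NP ratio as large as that of Slc6a3 or larger, Slc6a3 included; the others were Hspa1b, a heat shock gene (220 and 2137 counts), and Gm11892 (2 and 73 counts).

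Some genes of midbrain dopamine neurons were also higher in the LP library of this pair, and others were not. Of 11 such genes 9 had at least 20 counts in the pair. By an interval that excludes equal levels 6 of the 9 were higher in the LP library and none was lower. Of all genes with that many counts 31.1% had such an interval in either direction, a share not matched for counts. Chrna6, a nicotinic receptor subunit of midbrain dopamine neurons, went from 10 to 74 counts and En1, a transcription factor of the midbrain, from 4 to 28; neither had more than 2 counts in any prefrontal cortex or hippocampus library that measured it. Nr4a2, a transcription factor that dopamine neurons require and many active neurons induce, went from 212 to 405 here but was higher in LP in all 5 pairs, with larger log2 ratios in prefrontal cortex (1.35 in males and 1.33 in females) than in hypothalamus (1.07). Ret went from 711 to 898, Lmx1b from 84 to 108 and Foxa1 from 56 to 80. Slc10a4 (158 and 146), Lmx1a (55 and 61) and En2 (13 and 14) did not differ beyond their counting intervals. The defining factor Pitx3 had 2 and 1 counts and Foxa2 0 and 4. The 11 genes summed to 106 CPM in the NP and 163 CPM in the LP hypothalamus. Most of that was Ret (57.6 and 80.4 CPM) and Nr4a2 (17.2 and 36.3 CPM).

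Other markers differed between the 2 hypothalamus libraries as well. The lateral hypothalamic peptides Hcrt and Pmch went from 1523 to 290 and from 2193 to 1156 counts, Oxt from 3589 to 1459 and Avp from 5402 to 2578. Pomc (2047 and 2093 counts, log2 ratio 0.18), Nr5a1 (344 and 389, 0.32) and Nkx2-1 (723 and 816, 0.32) were higher in LP by intervals that exclude equal levels. Agrp (371 and 361), Sim1 (181 and 165), Otp (1089 and 918) and Hmx2 (48 and 31) did not differ beyond their counting intervals. The pituitary hormone genes Gh and Prl went from 1403 to 227 and from 336 to 16. The bracketed code in the title of the LP hypothalamus library also differs from those of the other 9 libraries beyond its running number, and the labels do not say what it stands for. The part of dissection, of cell make-up or of this code in the Slc6a3 value was not tested, and with 1 library per diet they cannot be told apart from the diet.

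**Figure D4:**
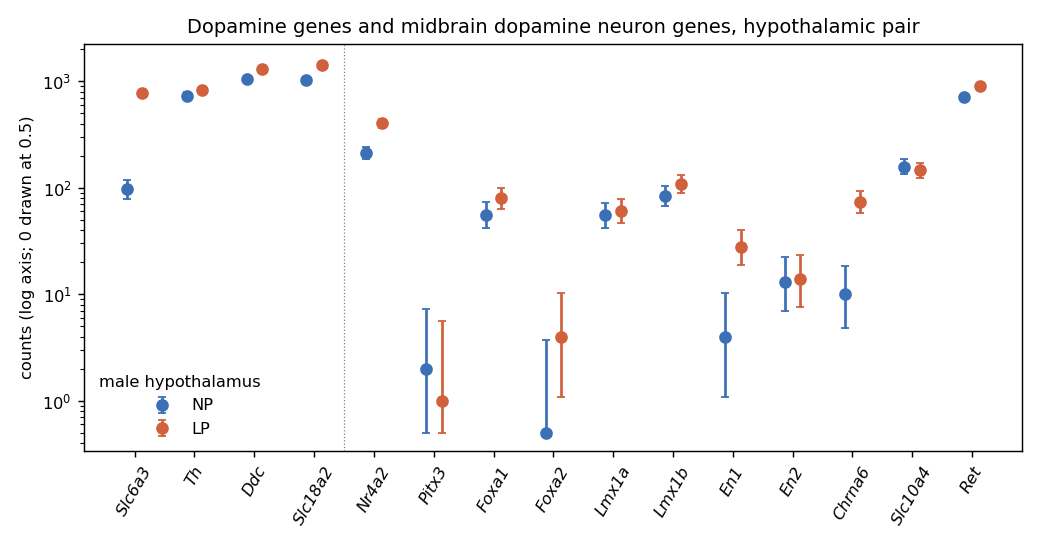
Counts in the NP (blue) and LP (orange) male hypothalamus libraries on a log axis, with exact 95% Poisson intervals, for 4 members (left of the dotted line) and 11 genes of midbrain dopamine neurons (right). Slc6a3 (97 and 779), Chrna6 (10 and 74) and En1 (4 and 28) show the widest gaps, and Th, Ddc and Slc18a2 differ by far less.

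Across the other members the diet differences were small or uneven. Adora2a had the lower level in LP in 5 of 5 pairs, with log2 ratios of -0.63 and -0.57 in male and female prefrontal cortex, -0.54 and -0.07 in male and female hippocampus and -0.21 in hypothalamus. Over all pairs its value was -0.47 ± 0.17 and did not pass (adjusted p = 0.249). Th had a value of 0.36 ± 0.14 over the 4 pairs that measured it (adjusted p = 0.271) and was higher in LP in 3 of them. With Slc6a3 these were the 3 of 9 members with an unadjusted p under 0.05, as were 2412 of all 17547 genes. Slc18a2 (0.32 ± 0.15), Ddc (0.22 ± 0.12), Drd2 (0.13 ± 0.16), Drd5 (0.10 ± 0.23), Drd1 (0.00 ± 0.13) and Ppp1r1b (-0.05 ± 0.06) did not pass either, with adjusted p from 0.384 to 0.997. Ppp1r1b, the best counted of these, stayed within log2 ratios of -0.17 to 0.12 in the 5 pairs. The median over the 9 members was 0.13, against 0.00 over all genes tested.

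Within single regions 5 of the 6 members with 10 libraries could be compared; Slc6a3, with 0 to 4 counts in each of these libraries, is too low there to show a difference and is left out. In prefrontal cortex 0 of 5 passed, where 1.33% of 11433 genes were called, and 2 had an unadjusted p under 0.05, as did 1524 of all genes. They were Slc18a2, whose counts were 40 and 43 in the NP libraries and 22 and 28 in the LP libraries of males and females, with a log2 difference of -0.72 ± 0.26 (adjusted p = 0.217), and Adora2a, with one of -0.64 ± 0.26 (adjusted p = 0.299). In hippocampus 0 of 5 passed, where 0.271% were called, and 1 had an unadjusted p under 0.05, as did 654 of all genes. That was Drd1, with counts of 56 and 71 in the NP libraries and of 49 and 41 in the LP libraries (-0.50 ± 0.22, adjusted p = 0.852).

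The diet difference was then compared between regions and between sexes. Between hippocampus and prefrontal cortex 0.0% of 11433 genes were called by edgeR's quasi-likelihood test (592 had an unadjusted p under 0.05, DESeq2 called 0 and the earlier quasi-likelihood method 1). Of the same 5 members 0 passed and 2 had an unadjusted p under 0.05, Slc18a2 (0.78 ± 0.32, adjusted p = 0.931), whose ratios were lower in LP in both prefrontal cortex pairs and near even in hippocampus, and Drd1 (-0.62 ± 0.26, adjusted p = 0.931). Between females and males 0.173% of 10973 genes were called and 0 of the 5 members tested, with adjusted p from 0.89 to 0.993.

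Single pairs give ratios with counting intervals and no test, and each interval leaves out the spread between animals. In the hypothalamic pair the interval of 5 of 9 members excluded equal levels, 4 higher in LP (Th, Ddc, Slc6a3 and Slc18a2) and Drd5 lower (39 and 15 counts, log2 ratio -1.10), where 31.1% of all genes with at least 20 counts in the pair did so. In the male prefrontal cortex pair it was 1 of 8 (Slc18a2, lower in LP, log2 ratio -0.91) against 27.5% of all genes, and in the female one 0 of 8 against 17.0%. In hippocampus it was 0 of 7 in males against 17.0% and 1 of 5 in females (Drd1, lower in LP, log2 ratio -0.71) against 13.3%. In the female hippocampus pair markers of neighbouring tissue differed as well. The 6 thalamic genes summed to 297 CPM in NP and 201 CPM in LP, and 3 of them, Tcf7l2, Rgs16 and Prkcd, had log2 ratios of -0.94, -0.64 and -0.61. The 4 choroid plexus genes measured there summed to 72.2 and 298 CPM, most of it Ttr (461 and 2052 counts). In the male pair the thalamic genes summed to 154 and 185 CPM and the same 4 choroid plexus genes to 173 and 330 CPM. Their part in the Drd1 value was not tested. Th in the male hippocampus had 2 and 11 counts, under the minimum of 20. Outside the hypothalamus the members' shares lay below those of all genes, apart from the female hippocampus with its 5 members. Such an interval narrows as counts rise, and the shares were not matched for counts. Outside the hypothalamus Adora2a had 10 to 47 counts, Drd2 13 to 21 and Ppp1r1b 443 to 782. In hypothalamus Th, Ddc and Slc18a2 had 735 to 1425. The shares therefore cannot say whether the members differ from other genes of like depth.

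**Figure D5:**
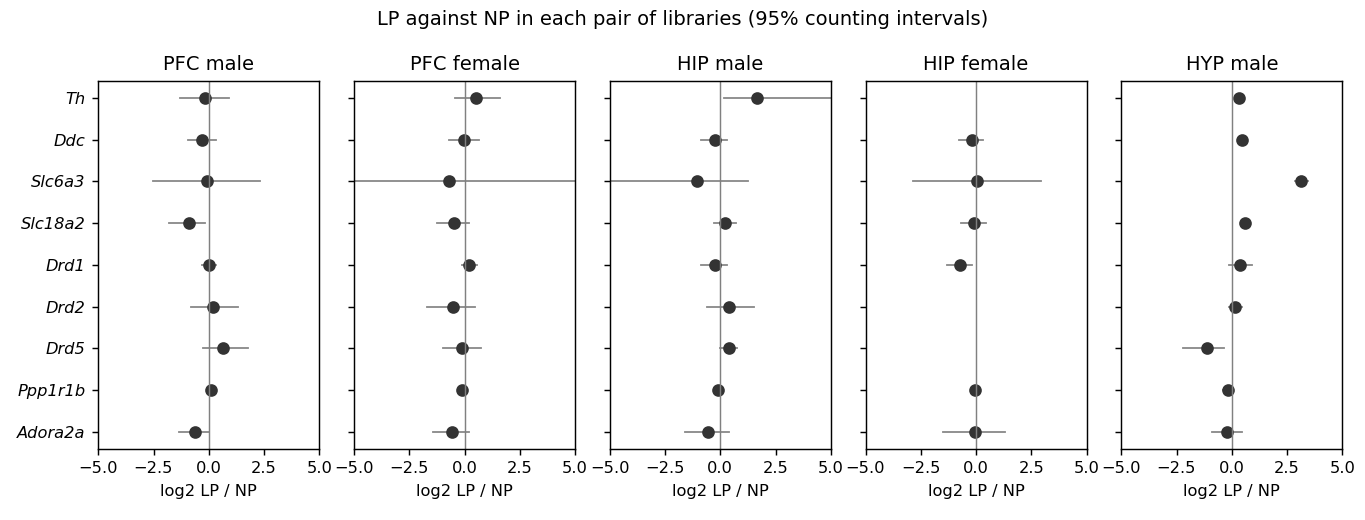
Log2 ratio of LP over NP (horizontal axis) for each gene in each of the 5 pairs, with 95% counting intervals (lines, ended at the axis limits where they run further). Th, Drd2 and Drd5 have no point in the female hippocampus pair; Slc6a3 in hypothalamus lies at 3.11, and its other pairs have intervals several units wide.

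Of the genes around the members, 0 of 10 tested genes of cofactor supply and breakdown, 0 of 20 of the receptors and signalling partners and 0 of 13 striatal genes passed in the diet comparison over all pairs (median log2 differences -0.02, 0.02 and 0.00). Over all 17547 genes tested 1.21% were called, so lists of this size would mostly hold 0. Of the 7 midbrain dopamine neuron genes tested, 2 were higher in LP, Nr4a2 by 0.99 ± 0.09 (adjusted p = 0.000191, higher in 5 of 5 pairs) and Ret, a growth factor receptor, by 0.43 ± 0.09 (adjusted p = 0.0481).

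Females and males were compared within the strata of prefrontal cortex and hippocampus. Of the 8 members tested 0 passed, where 0.425% of 16703 genes were called, and 0 had an unadjusted p under 0.05; Slc6a3 was too low to be tested. The values ran from -0.34 ± 0.22 for Adora2a to 0.38 ± 0.18 for Drd5, which had the smallest p (adjusted p = 0.569). No member thus had a detectable sex difference at this depth, and the hypothalamus has males only.

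The genes whose log2 CPM followed each member most closely were sought among genes with a mean of at least 1 CPM, 10962 for members with 10 libraries and 16746 for those with 9. The libraries of a region share their region, so these Pearson correlations describe the region pattern over 9 or 10 points and carry no test. Ddc ran closest to Foxa1 (0.995), a transcription factor gene of the midbrain list, and then to Dnajc10 and Sparc. Drd2 ran closest to Fndc3c1 (0.997), Nr5a1 (0.994), a transcription factor of the ventromedial hypothalamus, and Gm29374. Th was closest to Dnah1 (0.990), Snx8 and Itfg2, and Slc18a2 to Ssr1 (0.990), Canx and Pcdh17. Slc6a3, which differs between the hypothalamus libraries, had Rnf213 (0.977), Pros1 and Crip1. Drd1 was closest to Egln3 (0.990), Fstl4 and Gm3693, and Drd5 to Slc35c2 (0.986), Npdc1 and Gmpr. Ppp1r1b was closest to Fjx1 (0.995), Rasl10b and Kifc2. Adora2a had the lowest leading value, 0.959 with Myh2, followed by Pex14 and F12.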

How the data were processed

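The 10 libraries were made with a TruSeq kit, per the labels' protocols. The submitters' processing notes list CASAVA, FastQC 0.10.1, the aligner STAR 2.5.0a and the build mm10. What the authors deposited is a table of raw, unnormalized read counts with Ensembl gene IDs as rows and libraries as columns. No source used here names the counting tool or its strand setting. Of 47729 genes, 47224 matched reference chromosomes of GENCODE M21 by ID.

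With edgeR 4.0.16 in R 4.3.3, filterByExpr (minimum count 10) chose the genes and TMM scaled the libraries. Differences were tested with its quasi-likelihood F test, adjusted by Benjamini-Hochberg at 0.05 over all genes tested. Diet was fitted within 5 strata of region and sex, regions with sex and diet as additive terms, and sex within each region and diet. Genes measured in 9 libraries were fitted without the incomplete one if that left 2 or more residual degrees of freedom, and their p-values were adjusted together with the rest; Th, Drd2 and Drd5 could therefore not be tested for diet within regions. Nothing was imputed. Standard errors are the log2 difference over the square root of F. The pipeline was tested on simulated data. Pair ratios use a prior count of 2, and their intervals are exact binomial (Clopper-Pearson) at 95%, covering counting error only. A count of 0 allows up to 3 counts. Alternatives were DESeq2 1.42.0, the earlier quasi-likelihood method, RLE scaling, no filter, each pair or library left out, and prior counts of 0.5 and 5.

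The members, lists and tests were chosen with earlier results of these data known. All 9 members are named. From each pathway list up to 4 genes past the threshold per direction are named by smallest p, with others of the lists named beside Slc6a3 or Slc18a2 after their values were seen. The 3 genes per member with the highest Pearson correlation are named too. Some genes that this rule would name are not reported here.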

Additional observations from a re-analysis of the deposited data

Results flagged for a closer look

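Of 15 groups of 4 libraries (9 members in prefrontal cortex and 6 in hippocampus) examined for a sample far from the others, 1 was flagged, and chance alone flags about 1 in 20. It was Ddc in prefrontal cortex, where the male LP library had 4.72 CPM (41 counts) and the other 3 lay between 5.77 and 5.92 CPM. The counting interval of those 41 counts runs from 29.4 to 55.6, and the LP over NP ratio of this pair, -0.29 on the log2 scale, had an interval that includes equal levels.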

How the results depend on the processing

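For the members, 67 results with a test gave 753 values under the alternatives. Of these 745 kept their direction or stayed uncalled, 5 lost and 3 gained a call, and none of the called values changed sign. The 84 alternative pair ratios stayed on their side. The number of members past the threshold for diet over all pairs was 1, but 0 with DESeq2 and 0 to 1 when a pair was left out (0 without the hypothalamic pair). The calls of Th between hippocampus and prefrontal cortex, of Ddc between the same regions, and of Adora2a and Drd5 between hypothalamus and prefrontal cortex changed as given beside them; the cause was not tested. Region counts of members ran from 5 to 7 for hippocampus against prefrontal cortex, 7 to 8 for hypothalamus against prefrontal cortex and stayed at 7 for hypothalamus against hippocampus when a library was left out.

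Counts over all genes moved more. For diet over all pairs 212 genes were called, 121 with DESeq2 and 72 to 235 without a pair. In prefrontal cortex 152 became 13 with DESeq2, 21 with no filter and 48 to 775 without a pair, and in hippocampus 31 became 11, 5 and 34 to 125. The diet difference between these regions gave 0, 1 with the earlier method and 0 to 52 without a pair, and that between sexes 19, 12 with DESeq2, 0 with no filter and 5 to 197. The sex comparison gave 71, 33, 30 and 43 to 115 in the same order. Members with under 20 counts in a region (Th in hippocampus, Slc6a3 outside the hypothalamus) are limited by depth.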
